A study of Mus musculus with 12 samples.

Results

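The transcriptome of control LSK cells, the Lin-Sca+Kit+ fraction of bone marrow (BM), was described from 6 of the 12 RNA-seq libraries of the series. Members are defined by their labels: they are the libraries titled CTRL and treated with tetracycline (TET) throughout. Each was made from donor cells carrying CD45.2 that were flow sorted from the BM of a CD45.1 recipient of the B6.SJL strain. Recipients were aged 8 to 12 weeks when irradiated with 2 doses of 4.25 Gy and given BM of SCLtTA/BCR-ABL double transgenic (DTG) mice, and were older at sorting. In these mice the tetracycline transactivator (tTA) is under control of SCL, a gene active in stem and progenitor cells, and it switches on BCR-ABL only when TET is absent. TET was given in the drinking water from transplant until cell sorting in the control group, whose disease state is labelled normal. The 6 libraries therefore share the transgenes, the irradiation, the transplant and the drug, and none of these can be told apart from the resting state of LSK cells. Per the study's methods, donor BM was a frozen pool from mice of both sexes, so the libraries share their source of cells. Nothing in the labels says whether each came from a single recipient. Spread between libraries may therefore be partly technical.

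LSK cells are the compartment of the mouse marrow that holds haemopoietic stem cells (HSC) together with the multipotent progenitors that descend from them. They are sorted on the absence of antigens of mature blood cells and on 2 surface proteins, the stem cell factor receptor Kit and Sca-1, which is encoded by Ly6a. Such cells transcribe stem cell regulators alongside low levels of genes of several later lineages, a state usually called lineage priming. A bulk library averages over all cells of the sort. Fewer cells of a type and less RNA per cell cannot be told apart in it.

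Several facts about the libraries bear on what follows. All 6 are labelled male, but Xist, the noncoding RNA of the inactive X chromosome, had rank 7 of all genes, with 3736 to 4502 CPM, that is read counts scaled by the size of the library. The Y-linked genes Ddx3y, Eif2s3y, Kdm5d and Uty reached at most 0.675 CPM, and each was highest in replicate 1. These levels do not match the label male, and little Y-linked RNA was seen from a donor pool described as of both sexes. The part of donor or recipient sex in any value below was not tested. The deposited file of replicate 6 carries a library number apart from the consecutive numbers of replicates 1 to 5, and the sources used here do not say what the number stands for. Replicate 6 was also the library in which the largest number of variable genes was lowest. The number of variable genes, the B-cell list and some single genes are therefore also given without it, and other results that rest on it are not. No library matched another within sampling noise: the chi-square of counts per degree of freedom ran from 3.94 for replicates 1 and 5 to 39.7 for replicates 1 and 2. Spearman correlations between libraries across genes, which are not independent replicates, were 0.991 to 0.996.

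Several gene groups differed between the libraries, and promoters of some of their members are shown first, with a short motif marked in each group. The same motifs were counted in every group. Sequences are RefSeq windows on build GRCm38.p6, written 5′ to 3′ on the strand of the gene, and capitals mark the motif or its reverse complement. Immediate early genes are switched on within minutes of a stimulus, and the core of the cAMP response element, TGACG, lies within 80 bases before the start of Fos, Fosb and Nr4a1. These windows are chr12:85473810-85473909 on the plus strand, chr7:19310026-19310125 on the minus strand and chr15:101266766-101266865 on the plus strand.
Fos: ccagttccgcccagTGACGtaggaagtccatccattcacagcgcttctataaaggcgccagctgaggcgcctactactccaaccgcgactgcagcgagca
Fosb: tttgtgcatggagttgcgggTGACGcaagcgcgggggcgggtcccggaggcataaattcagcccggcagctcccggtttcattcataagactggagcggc
Nr4a1: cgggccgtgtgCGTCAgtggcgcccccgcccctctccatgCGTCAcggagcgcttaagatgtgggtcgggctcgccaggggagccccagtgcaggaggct

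Of 30 immediate early genes listed, 27 had a promoter window of 300 bases, and 16 of these (59.3%) held TGACG on either strand, against 23% of the windows of 27021 genes. The GC box GGGCGG was held by 25 of the 27 (92.6%), against 38.2% of all genes. The full palindrome TGACGTCA, which contains TGACG, was held by 3 of the 27 (11.1%), against 2.03% of all genes. The CArG box of serum response factor was held by 2 of the 27 (7.41%), against 1.81%. TGACG was also held by 9 of 15 heat shock windows (60%) and 30 of 58 cytosolic ribosomal protein windows (51.7%). In these 2 groups GGGCGG was at 86.7% and 62.1%, so neither motif is particular to immediate early genes. TGACG was rarer in class II (1 of 7), erythroid (1 of 13) and mature neutrophil windows (0 of 15), and B-cell windows held it in 3 of 9.

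Genes of neutrophil granules formed another variable group, and S100a8 and Cd177 are shown because their windows hold the TATA box TATAAA. S100a8 encodes a subunit of calprotectin, the main cytosolic calcium-binding protein of neutrophils, and Cd177 a neutrophil surface glycoprotein. The windows are chr3:90668991-90669090 on the plus strand and chr7:24760292-24760391 on the minus strand.
S100a8: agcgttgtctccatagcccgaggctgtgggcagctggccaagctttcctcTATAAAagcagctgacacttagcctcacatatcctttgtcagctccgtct
Cd177: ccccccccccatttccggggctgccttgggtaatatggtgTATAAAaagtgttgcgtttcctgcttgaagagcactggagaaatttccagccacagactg

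TATAAA was found in the windows of 7 of 15 mature neutrophil genes (46.7%), against 15.7% of all genes. For the class II genes of the major histocompatibility complex (MHC), CCAAT boxes are shown in H2-Aa, at chr17:34287804-34287903 on the minus strand, and H2-Eb1, at chr17:34305787-34305886 on the plus strand. CCAAT, which NF-Y binds in class II promoters, was held by 7 of 7 class II windows (100%), against 41.1% of all genes.
H2-Aa: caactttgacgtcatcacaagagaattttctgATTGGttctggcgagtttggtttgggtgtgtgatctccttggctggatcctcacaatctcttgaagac
H2-Eb1: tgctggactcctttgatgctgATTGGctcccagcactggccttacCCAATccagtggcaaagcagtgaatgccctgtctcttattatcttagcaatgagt

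The inducible HSP70 genes Hspa1a and Hspa1b are shown from 120 to 21 bases before their starts, with the heat shock element GAANNTTC in capitals. Their windows are chr17:34972177-34972276 and chr17:34959259-34959358, both on the minus strand. The full windows of the pair were identical at 296 of 300 bases, so the separate counts of these genes are uncertain.
Hspa1a: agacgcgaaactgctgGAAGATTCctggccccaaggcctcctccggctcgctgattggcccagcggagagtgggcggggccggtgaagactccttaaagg
Hspa1b: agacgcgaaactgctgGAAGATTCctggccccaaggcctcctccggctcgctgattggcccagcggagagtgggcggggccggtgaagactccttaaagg

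GAANNTTC was found in 9 of 15 heat shock promoters (60%), against 9.04% of all genes. The genes shown are members whose windows hold the motif, and these matches are descriptions of letters in a window. One short noncoding gene, Mir6236, varied as widely as the neutrophil genes. Its counts are reads over the gene, and whether any came from the mature miRNA was not tested. The annotated mature sequence is shown, at chr9:110281353-110281371 on the plus strand, with its seed, bases 2 to 8, in capitals.
mmu-miR-6236: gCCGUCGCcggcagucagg

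The seed of mmu-miR-6236 was held by 1 of 1738 mature miRNAs, that is by itself only. Lars2, which encodes the mitochondrial leucyl-tRNA synthetase, and the noncoding gene Gm15564 had the same order of libraries as Mir6236, and this pair shares a run of 52 bases on the same strand, of which 30 are shown.
Lars2 and Gm15564: gaattcaccaagcgttggattgttcaccca

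The 30 bases were held by 3 genes, the other being AA474408. AA474408 lay at 5.30 to 6.98 CPM in the 6 libraries, while Lars2 ran from 63.4 CPM in replicate 1 to 728 CPM in replicate 2 and Gm15564 from 1.33 CPM in replicate 1 to 33.1 CPM in replicate 2. Mir6236, Gm15564, Lars2 and mt-Rnr1 were named by the rule for variable genes, and AA474408 after its values were seen.

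Depth was 22804754 counts in replicate 5 to 41832868 in replicate 1, with a median of 26999600. The number of genes with a count ran from 26783 in replicate 5 to 28602 in replicate 4, and 14221 genes were at 1 CPM or more in all 6 libraries. CPM were computed with trimmed-mean (TMM) factors throughout. A count of 0 was read as up to 3 counts, or 0.0723 to 0.132 CPM depending on the library, which covers counting error only. The 100 most abundant genes of a library took 15.5% ± 0.679 (SD, n = 6) of its counts, from 14.8% in replicate 6 to 16.3% in replicate 4. The 10 most abundant took 4.93% in replicate 1 to 6.76% in replicate 2. Between 1167 genes in replicate 3 and 1206 in replicate 6 were needed to reach 50% of the counts, so this measure was closely alike in all 6 libraries.

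**Figure D1:**
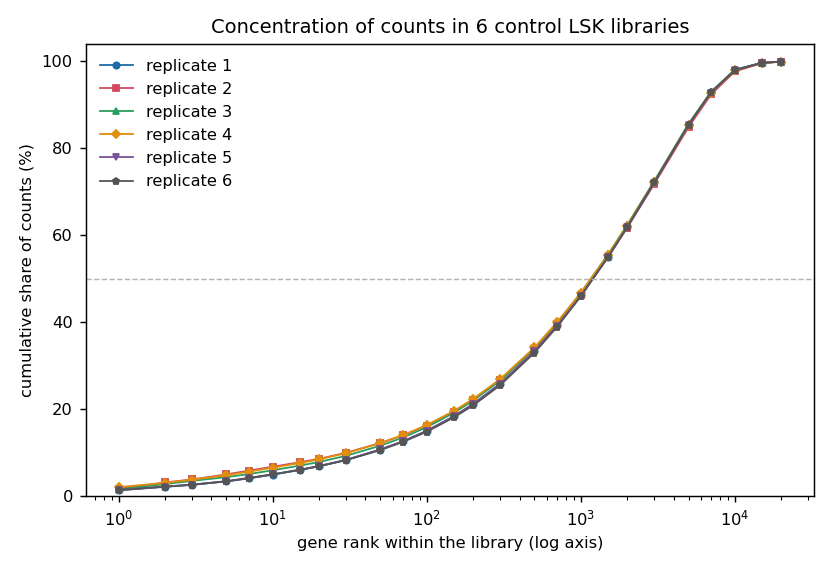
Cumulative share of counts (%) against gene rank within each library (log axis), with 1 line for each of the 6 control libraries and a dashed line at 50%. The lines separate over the first 10 ranks, where the share is 4.93% to 6.76%, and run together from about rank 1000, where it is 46.0% to 46.8%.

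By level, the bulk of the counts came from genes of intermediate abundance. The 49 genes with a mean of 1000 CPM or more held 11.3% of counts. The 2486 genes from 100 to 1000 CPM held 56.6%, the 7224 genes from 10 to 100 CPM held 29.9%, and the 5553 genes from 1 to 10 CPM held 1.96%. A further 17825 genes had counts but a mean under 1 CPM, and together these held 0.319%.

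Gene classes differed in how many of their members were detected. Of 21922 protein-coding genes, 11745 (53.6%) were at 1 CPM or more in every library, and they were the class that took 92.7% of counts in replicate 2 to 95.1% in replicate 1. Long noncoding RNAs reached that level for 1114 of 9899 genes (11.3%), pseudogenes for 343 of 13494 (2.54%), small RNAs for 41 of 3100 (1.32%) and immunoglobulin or T-cell receptor segments for 11 of 702 (1.57%). Odorant and vomeronasal receptors, a class singled out after values were seen because it is used by sensory neurons, were at 1 CPM or more for 6 of 1478 genes, and 84.4% of the class had no count in any library. Of all 56748 identifiers, 41.6% had no count.

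Most replication-dependent histones, also grouped after values were seen, were detected. Of 67 such genes, 55 were at 1 CPM or more in all 6 libraries, and the class took 0.788% of counts in replicate 6 to 1.07% in replicate 3. These messages mostly lack a poly(A) tail, and the labels give the library preparation by the name of the kit only. Per kb of exon, Hist1h2bn (872 ± 115 CPM per kb) and Hist1h4k (632 ± 77.2) stood among the 30 most abundant genes of any class. Histone genes are close copies of each other and their separate counts are uncertain.

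Of the 10 most abundant entries, 3 were Ensembl identifiers with no name or length in the reference used here, and they are given by identifier only. ENSMUSG00000118642 was first at 15691 ± 2847 CPM, from 13371 CPM in replicate 1 to 20935 CPM in replicate 4. ENSMUSG00000119584 had rank 3 and was far less even, from 2226 CPM in replicate 1 to 14446 CPM in replicate 2. Identifiers with no name together took 2.10% of counts in replicate 1 to 3.71% in replicate 2, and without them and mitochondrial genes the share of the top 100 genes was 13.1%.

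Named genes at the top encoded the translation machinery, the cytoskeleton and nuclear RNAs. Eef1a1, the elongation factor that delivers aminoacyl-tRNA to the ribosome, was at 7699 ± 562 CPM and led the ranking per length at 3088 ± 225 CPM per kb. Actb, cytoplasmic beta-actin, followed among nuclear genes at 1696 ± 83.6 CPM per kb. B2m, the invariant chain of MHC class I, was at 1523 ± 127 CPM per kb, and Rplp1, an acidic protein of the ribosomal stalk, at 1589 ± 166. The noncoding RNA Malat1 was at 4343 ± 835 CPM and was highest in replicate 2 at 5990 CPM.

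The top 30 by CPM also held genes known from haemopoietic or dividing cells. Mpo, the myeloperoxidase of azurophil granules, was at 1687 ± 188 CPM with rank 17 of all genes. Cdk6, a G1 cyclin-dependent kinase that regulates HSC exit from quiescence, was at 1939 ± 192 CPM. Mki67, a marker of cycling cells, was at 1580 ± 111 CPM. Adgrg1, an adhesion receptor of HSC also known as GPR56, was at 1482 ± 60.6 CPM. The rank order within the top was not firm: of the 29 pairs of neighbours among the 30 highest genes, 4 kept their order in all 6 libraries and 3 had ranges that did not overlap.

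The labelled cell type was checked against its sorting genes. Kit was at 671 CPM in replicate 3, 750 at the median and 789 in replicate 5, so the libraries lay close together. Ly6a was at 27.2 CPM in replicate 6, 35.8 at the median and 37.8 in replicate 3. Ptprc, the gene of CD45, by which donor cells were told from recipient cells, was at 454 CPM on average. All 17 listed sorting and surface genes were at 1 CPM or more in all libraries, with a summed level of 3041 CPM in replicate 3 to 3297 CPM in replicate 1.

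Among the surface genes that divide the LSK fraction, Cd34 had the highest level per length (102 ± 6.98 CPM per kb). Flt3, which marks multipotent progenitors with lymphoid potential, was at 68.7 ± 5.54 CPM per kb and Cd48, found on progenitors and absent from the most primitive HSC, at 82.3 ± 7.83. Slamf1 (CD150), carried by long-term HSC, was at 1.69 ± 0.144 CPM per kb and Procr (EPCR) at 7.38 ± 1.34. The progenitor genes thus stood above the 2 HSC genes per length in these averages.

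Listed antigens commonly used to remove lineage-positive cells were low, apart from Ptprc, whose B220 form is a common lineage antigen of B cells. Itgam (CD11b) was at 1.94 ± 0.816 CPM per kb. Ly6g (Gr-1) was at 1.45 CPM and Cd3e at 0.701 CPM. Of the 13 listed antigens 8 were at 1 CPM or more in every library. Ly6g was uneven, at 0.263 CPM in the lowest library and 4.89 CPM in replicate 4.

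All 45 listed haemopoietic transcription factors were at 1 CPM or more in all libraries, and their sum had the narrowest relative range of the 40 lists, from 7818 CPM in replicate 3 to 7955 CPM in replicate 2. The narrow sum does not hold for each member. Egr1 (7.15 to 43.7 CPM), Pax5 (4.29 to 26.7 CPM) and Ebf1 (2.93 to 21.5 CPM) are in this list and varied widely, as described below. Lmo2, a bridging cofactor in the complex of Tal1 and GATA factors, was highest per length at 223 ± 13.5 CPM per kb. It was followed by Myc (118 ± 8.14 CPM per kb), a driver of growth and division, and Etv6 (100.2 ± 5.67), an ETS repressor needed by adult HSC. Myb, a factor of progenitor expansion, was at 89.2 ± 3.54 CPM per kb, Lyl1 at 85.3 ± 3.63 and Ikzf1, which encodes Ikaros, at 84.8 ± 4.57.

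The other heptad factors, which bind together at HSC enhancers, were also present. Fli1 was at 67.8 ± 2.47 CPM per kb, Erg at 57.6 ± 3.53, Gata2 at 40.6 ± 3.06, Tal1 at 35.0 ± 1.29 and Runx1 at 21.2 ± 1.23. Meis1, partner of Hox proteins, was at 27.7 ± 2.17 CPM per kb and Spi1, the myeloid and B-cell factor PU.1, at 32.4 ± 2.62. Relative ranges between libraries were narrowest for Tal1 (146 to 160 CPM) and Fli1 (225 to 249 CPM). They were widest for Meis1 (253 to 322 CPM) and Gata2 (201 to 244 CPM).

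Genes of long-term HSC were lower and less even. Of 30 listed, 28 were at 1 CPM or more in all libraries, and their sum ran from 882 CPM in replicate 6 through a median of 1042 to 1209 CPM in replicate 2. Hlf, which encodes a PAR bZIP factor of HSC, was at 293 CPM in replicate 4, 341 at the median and 412 in replicate 2. Mecom, which encodes EVI1, was at 83.9 CPM in replicate 3 and 112 CPM in replicate 5. Hoxb5, a gene of the most primitive HSC, was at 1.33 to 2.66 CPM.

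The Hox genes were read by cluster. Of 39 listed, 10 were at 1 CPM or more in all 6 libraries and all 10 belonged to the A and B clusters, while 13 had no count in any library. Hoxa9 was the highest at 13.1 ± 1.81 CPM per kb, and it was lowest in replicate 6 at 56.3 CPM and highest in replicate 2 at 87.6 CPM. Hoxa7 (9.53 ± 0.705 CPM per kb) and Hoxa5 (8.26 ± 1.83) followed.

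Cytokine receptors completed the identity genes. All 28 listed were at 1 CPM or more in every library, led per length by Kit (83.8 ± 4.92 CPM per kb), Flt3 and Ifngr1 (45.1 ± 3.79), the ligand-binding chain of the interferon gamma receptor. Il7r, the interleukin 7 receptor of lymphoid progenitors, was at 6.62 CPM in replicate 6, 15.8 at the median and 20.1 in replicate 3. Adhesion and homing genes included Cd47 (167 ± 9.23 CPM per kb), the signal that inhibits phagocytosis, and Cxcr4 (93.9 ± 9.29), the receptor that retains HSC in the marrow.

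Priming genes of the myeloid branch were at high levels. All 20 listed were at 1 CPM or more, with a sum of 4189 CPM in replicate 2, 5154 at the median and 5300 in replicate 1. Mpo was at 493 ± 54.8 CPM per kb, Elane, neutrophil elastase, at 229 ± 39.2, Ctsg, cathepsin G, at 180 ± 26.3 and Prtn3, proteinase 3, at 138 ± 15.3. All 4 encode proteins of primary granules, which are made at the promyelocyte stage. Mpo was at 1328 CPM in replicate 2 and 1803 CPM in replicate 6.

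The lymphoid priming list summed to 2814 CPM in replicate 6 and 3372 CPM in replicate 1, with all 20 genes at 1 CPM or more. Dntt, terminal transferase, was at 234 CPM in replicate 6, 325 at the median and 445 in replicate 3. Ighm, the mu heavy chain, whose constant region is also transcribed without rearrangement, was at 368 CPM in replicate 3 and 702 CPM in replicate 2. Rag1, a subunit of the recombinase that joins antigen receptor segments, was at 6.09 CPM in replicate 6 and 34.9 CPM in replicate 3, so replicate 6 was lowest for both Dntt and Rag1.

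Megakaryocyte and erythroid genes were present at lower levels. Of the 20 megakaryocyte and platelet genes 16 were at 1 CPM or more in all libraries, with the narrow sum of 1036 to 1138 CPM. Plek, pleckstrin, was at 73.0 ± 4.86 CPM per kb and Pf4, platelet factor 4, at 57.6 ± 15.8. The 19 erythroid genes measured summed to 674 CPM in replicate 4 and 863 CPM in replicate 5. Car2, carbonic anhydrase 2, was at 152 ± 17.8 CPM per kb and Tfrc, the transferrin receptor, at 20.8 ± 1.80. Erythroid factors were low, with Gata1 at 18.4 CPM and Klf1 at 7.22 CPM.

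**Figure D2:**
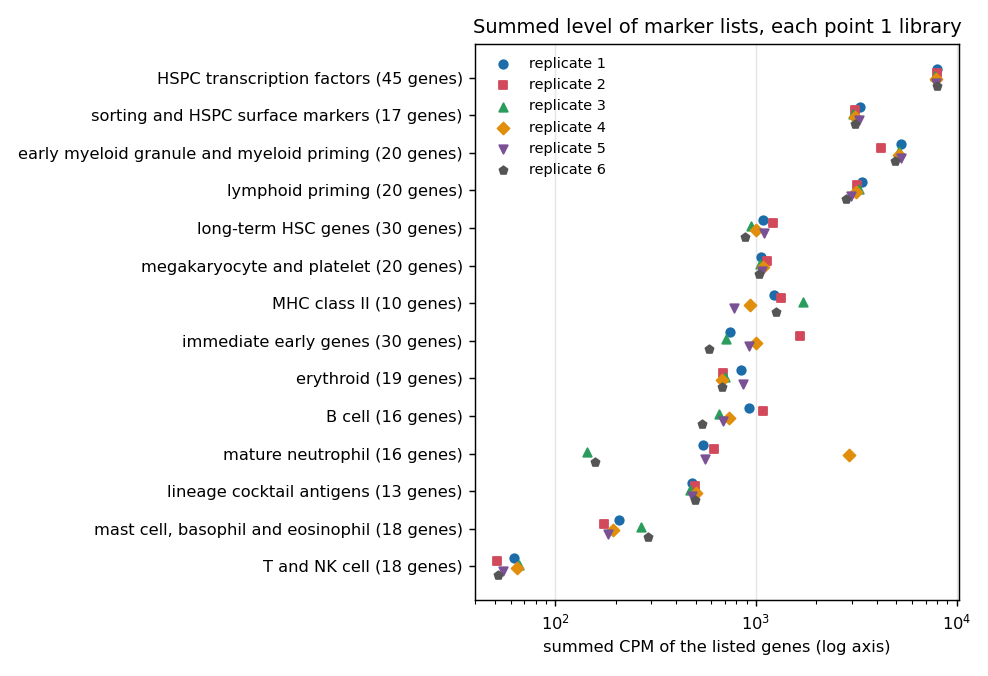
Summed CPM of the genes of 14 marker lists (log axis), 1 point for each control library, with the number of genes measured in brackets. The 45 transcription factors lie together at 7818 to 7955 CPM, while the 16 mature neutrophil genes spread from 144 CPM in replicate 3 to 2900 CPM in replicate 4.

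Markers of other cell types that a sort could carry were read as whole lists. T and natural killer cell genes were lowest, at 51.4 to 65.8 CPM in sum, and Cd3e lay under 1 CPM on average. The 16 stromal genes summed to 155 to 176 CPM, and 6 of them were at 1 CPM or more. Pdgfrb, a receptor of pericytes, led them at 14.0 ± 2.34 CPM per kb, followed by Col4a1, a basement membrane collagen, at 7.51 ± 0.655, while Col1a1, a bone and fibroblast collagen, ran from 0.458 CPM in replicate 1 to 7.0 CPM in replicate 3. The 16 endothelial genes summed to 360 to 390 CPM, of which Pecam1 and Tie1 are also genes of HSC, while Cdh5, VE-cadherin, was at 0.443 CPM. The monocyte, macrophage and dendritic cell list summed to 753 to 1250 CPM, led per length by Cd74 (220 ± 68.4 CPM per kb) and Lyz2 (162 ± 59.9), while the macrophage gene C1qa was at 2.01 ± 1.22. The mast cell, basophil and eosinophil list summed to 176 to 288 CPM, led by the eosinophil granule gene Prg2 (48.1 ± 10.8 CPM per kb) and Cpa3 (43.8 ± 13.2). Defining genes of neutrophils, Ngp at 141 CPM and Camp at 43.8 CPM, and of red cells, Hbb-bs at 44.7 CPM and Hba-a1 at 10.1 CPM, differed widely between libraries, as described below.

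Among housekeeping programmes, the 79 cytosolic ribosomal protein genes, all at 1 CPM or more, summed to 43070 CPM in replicate 6 and 50488 CPM in replicate 3, and 0 of 79 were variable by the definition given below, which 1.1% of all genes kept met. Of these, 3 examples lay far under the list's median of 278 CPM per kb: Rps10 at 7.99 ± 0.561 CPM per kb, Rpl24 at 15.2 ± 0.857 and Rpl13a at 27.9 ± 1.06. Ribosomal protein genes have many processed copies, and how the counting treated reads that match several places is not given in the sources used here, so these levels are uncertain.

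Messages of the mitochondrial genome were also uneven in level. Of the 13, 8 were at 1 CPM or more, led by mt-Co1 at 2698 ± 555 CPM per kb and mt-Cytb at 1501 ± 325. The other 5 included mt-Co2 and mt-Atp8, which reached at most 0.0403 CPM, mt-Atp6 at most 0.121 CPM and mt-Co3 at most 0.202 CPM. Mitochondrial sequence has close copies in the nuclear genome, and these low counts are uncertain. Mitochondrial messages took 0.769% of counts in replicate 3 to 1.20% in replicate 2.

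All 25 S phase and all 25 G2/M genes were at 1 CPM or more. In either list 0 genes were variable, which is near the 1.1% of all genes and is no result about these lists. The S phase list summed to 4249 CPM in replicate 2 and 4954 CPM in replicate 1, led by the replicative helicase genes Mcm6 (135 ± 8.20 CPM per kb) and Mcm3 (99.5 ± 5.69). The G2/M list summed to 5231 CPM in replicate 2 and 6096 CPM in replicate 6, led by Mki67 (157 ± 11 CPM per kb) and Top2a (136 ± 10.5), the topoisomerase of mitosis. Replicate 2 was thus lowest in both lists.

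In energy metabolism, all 20 glycolysis genes and all 73 nuclear respiratory genes were at 1 CPM or more. Glycolysis was led by Gapdh (136 ± 13.4 CPM per kb), Ldha (129 ± 10.4), which makes lactate, and Pkm (123 ± 7.66), pyruvate kinase M. The sum of the glycolysis list was 3457 CPM in replicate 2 and 4182 CPM in replicate 5. Chromatin regulators also lay in narrow ranges: the 30 Polycomb genes had a summed level of 3257 to 3426 CPM, and the 15 genes of DNA methylation, among them the maintenance enzyme Dnmt1 (99.9 ± 5.79 CPM per kb), of 2566 to 2857 CPM.

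Related genes of 1 family were compared within each library, on log2 of the ratio of CPM per kb, to ask which member the cells used most. In 69 of 71 pairs (97.2%) the same gene was higher in all 6 libraries, which is the smallest p that an exact two-sided sign-flip permutation test over 6 libraries allows (p = 0.03125, adjusted p = 0.0322 by Benjamini-Hochberg over the 71 pairs). The difference was 2-fold or more in 47 pairs and 10-fold or more in 14. Since nearly all pairs pass, the size of a ratio and its spread say more than the call. Genes of 1 family may differ in how their exons are annotated, and 45 of the 47 pairs at 2-fold or more kept their direction both without division by length and with the length of the longest transcript.

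Among structural proteins and enzymes the ratios were often large. Lmnb1, lamin B1, exceeded Lmna, the lamin of stiff and differentiated tissues, by 7.27 ± 0.240 (SD, n = 6) on the log2 scale. Pkm exceeded Pklr, pyruvate kinase of liver and red cells, by 7.0 ± 0.601, and Ldha exceeded Ldhb by 3.71 ± 0.367. Actb exceeded Actg1 by 3.36 ± 0.0177, the tightest of these ratios. Eef1a2, the elongation factor of muscle and neurons, had no count in any library, so Eef1a1 was at least 63747-fold higher with 3 counts per library put in its place. The haemopoietic GTPase gene Rac2 exceeded Rac1, which most cells express, by 0.76 ± 0.0481. For the glucose transporters, the log2 ratio of Slc2a1 over Slc2a3 was -1.03 ± 0.162, so Slc2a3 was the higher.

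Pairs of stem and progenitor cell regulators are given next, and in those named here the same gene was higher in all 6 libraries. Foxo3, the main FOXO factor of HSC quiescence, exceeded Foxo1 by 3.87 ± 0.154. Gata2 exceeded Gata1, the erythroid and megakaryocytic factor, by 2.43 ± 0.241, and Gata3, the T-cell factor, by 3.56 ± 0.205. Myc exceeded Mycn by 2.49 ± 0.190, Ccnd2 exceeded Ccnd3 by 1.87 ± 0.226, and Ezh2, the methyltransferase of dividing cells, exceeded Ezh1 by 2.06 ± 0.11. Among receptors, Kit exceeded Flt3 by 0.29 ± 0.124. In the IGF family, Igf1r exceeded the decoy receptor Igf2r by 2.84 ± 0.420.

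Immunoproteasome subunits, which replace the standard catalytic subunits in blood cells, were compared for each site. Psmb10 exceeded Psmb7 by 1.31 ± 0.0834 and Psmb8 exceeded Psmb5 by 0.47 ± 0.0727. At the third site the standard subunit Psmb6 exceeded Psmb9 by 0.55 ± 0.0983 per kb, a direction that turned without division by length. The 2 pairs in which neither gene was higher throughout were Runx1 and Runx2 (0.02 ± 0.128, exact p = 0.688, first gene higher in 3 of 6 libraries) and Srsf2 and Srsf1 (-0.03 ± 0.0775, exact p = 0.375, first gene higher in 2 of 6). A p over the threshold does not show that these levels are the same.

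**Figure D3:**
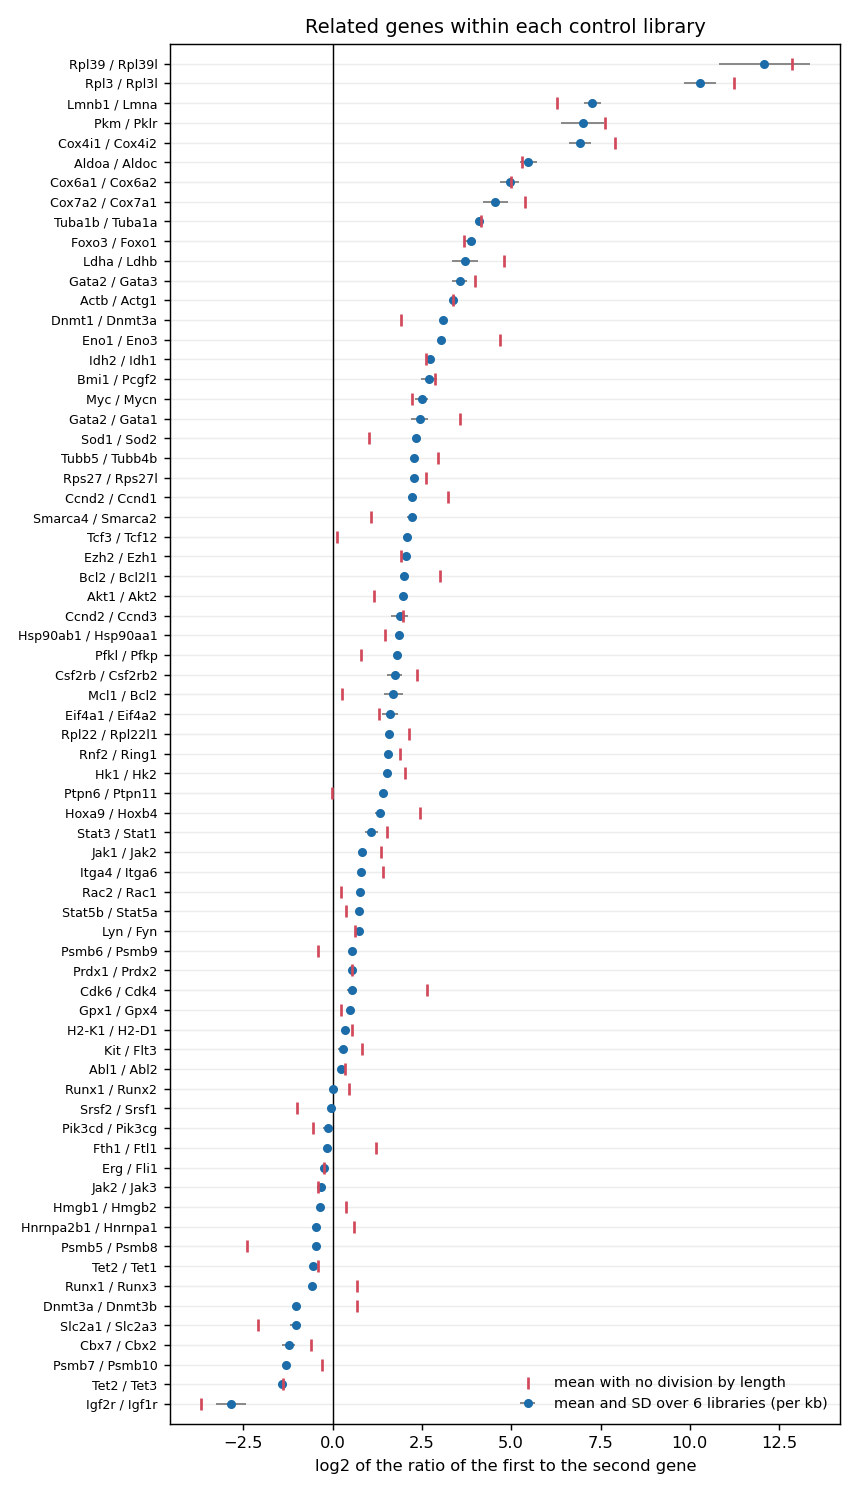
Mean and SD over the 6 control libraries of log2 of the ratio of CPM per kb of the first to the second gene, for 69 of the 71 pairs (Eef1a1 and Eef1a2, where Eef1a2 had no count, and 1 other pair are not drawn). Red marks give the mean with no division by length, and 7 pairs, such as Dnmt3a and Dnmt3b, change direction between the 2 scales.

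Variation between libraries was measured as the biological coefficient of variation (BCV), the spread of a gene's level between libraries beyond that of counting, estimated by edgeR. edgeR draws each gene's estimate towards the trend, so the BCV of a variable gene understates its spread: with DESeq2's estimate the BCV of Camp, the largest among genes with a mean of 10 CPM or more, was 1.16 in place of 0.812, and 273 genes met the rule given below in place of 185. The common BCV of the 16845 genes kept by the filter on low counts was 0.104, with a jackknife standard error over the 6 libraries of 0.00933. Among 9758 genes with a mean of 10 CPM or more, the median BCV was 0.0728, in a range of 0.0551 to 0.812. The share of the spread that counting could give fell with level: for genes with a mean of 1 to 10 CPM the median coefficient of variation was 16.9%, against 11.3% for counting alone, and for genes of 1000 CPM or more it was 7.30% against 0.492%.

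A gene was called variable where its BCV was at least 2 times the trend at its level, and 185 of 16845 genes (1.1%) met this, 158 of them protein coding and 12 of them immunoglobulin segments. The rule and the count describe these libraries, with no test. With no filter on low counts 541 genes met it, and 127 of the 185 were among them. Replicate 6 was the lowest library for 96 of the 185 genes, and for 3220 of all 16845. Replicate 3 was lowest for 41 and for 2916 of all. Replicate 4 was the highest for 55 of the 185, and for 2198 of all, and replicate 2 for 53 and for 3824 of all. Without replicate 6 there were 141 variable genes, of which 128 were among the 185. The first 3 principal components of the libraries held 35.4%, 26.4% and 18.8% of the variance, and replicates 2 and 4 stood opposite replicate 6 on the first.

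**Figure D4:**
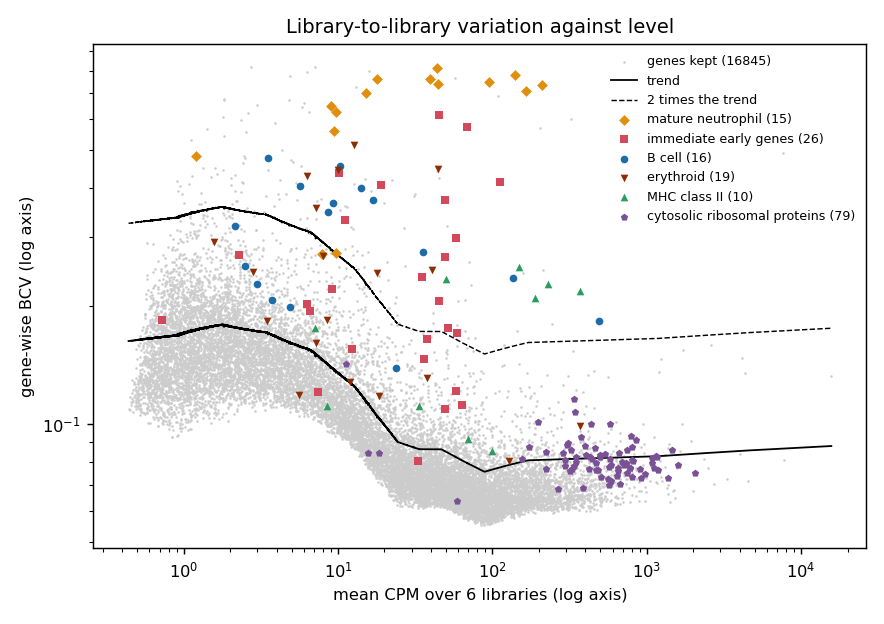
Gene-wise BCV (log axis) against mean CPM (log axis) of the 16845 genes kept, with the trend as a solid line, 2 times the trend as a dashed line and the members of 6 lists as coloured symbols with their number in brackets. Of 15 mature neutrophil genes kept 14 lie above the dashed line, as do 13 of 26 immediate early genes, against 1.1% of all genes kept. Of 79 ribosomal protein genes 0 lie above it, which is near that share.

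Neutrophil granule genes were the most variable group, with 14 of 15 members kept past the line against 1.1% of all genes. Ngp, neutrophilic granule protein, was at 87.1, 91.7, 16.4, 530, 96.6 and 25.5 CPM in replicates 1 to 6. S100a9, the partner of S100a8 in calprotectin, was at 151, 161, 33.6, 734, 147 and 33.6 CPM in the same order. Replicate 4 was high, replicates 1, 2 and 5 were in the middle and replicates 3 and 6 were low.

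Other granule genes of late stages were highest in replicate 4 as well. Camp, the cathelicidin, ran from 4.83 CPM in replicate 3 to 171 CPM in replicate 4, Ltf, lactoferrin, from 14.7 to 354 CPM and Lcn2, lipocalin 2, from 6.19 to 146 CPM. Chil3, a chitinase-like protein of myeloid cells, ran from 7.30 CPM in replicate 6 to 158 CPM in replicate 4, and the collagenase gene Mmp8 from 2.22 to 29.1 CPM in the same libraries. Primary granule genes, which are made earlier, did not share this range: Elane ran from 161 CPM in replicate 6 to 265 CPM in replicate 5, and replicate 4 was not the highest library for Mpo, Ctsg or Prtn3. Without replicate 4 the BCV of Ngp was 0.450 in place of 0.781 and that of Camp 0.458 in place of 0.812, and 13 members of the list were still past the line.

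Several genes outside the list were also highest in replicate 4, of which C3 was chosen after its values were seen. Cybb, the NADPH oxidase subunit gp91phox, was at 102 CPM in replicate 4 and 14.7 CPM in replicate 6. Lyz2, lysozyme, was at 349 CPM in replicate 4 and 124 CPM in replicate 6. C3, complement component 3, was at 94.1 CPM in replicate 4 and 24.0 CPM in replicate 6. Ly6g, one of the listed lineage antigens, followed the group, and the part of mature cells in these libraries was not tested.

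Immediate early genes formed the next group, with 13 of 26 members kept past the line, against 1.1% of all genes. Fos, a subunit of AP-1, was at 19.3, 130, 12.1, 47.9, 48.4 and 12.0 CPM in replicates 1 to 6. Fosb was at 27.1, 187, 18.8, 62.1, 87.7 and 27.0 CPM, and Jun, the partner of Fos, at 68.9, 262, 65.7, 116, 110 and 46.9 CPM. Replicate 2 was the highest library for all 3, replicates 4 and 5 were next, and replicates 1, 3 and 6 were low.

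Other members of the list were highest in replicate 2 as well. Egr1, a zinc finger factor, was at 7.15 CPM in replicate 3 and 43.7 CPM in replicate 2. Dusp1, a phosphatase that switches off MAP kinases, was at 25 CPM in replicate 6 and 102 CPM in replicate 2, and Zfp36, which encodes the mRNA-destabilising protein tristetraprolin, at 32.3 and 110 CPM in the same libraries. Without replicate 2, 7 members of the list were past the line and the BCV of Nr4a1, an orphan nuclear receptor, was 0.292 in place of 0.437.

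Heat shock genes differed in how far they varied. The constitutive chaperones were abundant, with Hsp90ab1 at 2509 ± 170 CPM and Hspa8 at 1387 ± 134 CPM. Hspa8 and Hsp90aa1 were lowest in replicate 4, at 1213 and 786 CPM, and highest in replicate 3, at 1614 and 1026 CPM. Several other members shared these 2 libraries, but Hsp90ab1 was lowest in replicate 2. The inducible pair varied more widely, with Hspa1b at 3.35, 44.3, 35.6, 4.04, 5.27 and 2.63 CPM and Hspa1a at 1.74, 17.6, 13.7, 1.26, 2.81 and 0.865 CPM in replicates 1 to 6. Hsph1, a nucleotide exchange factor of HSP70, was at 99.7 CPM in replicate 2 and 109 CPM in replicate 3 and at 50.8 to 68.0 CPM in the others. Replicates 2 and 3 were the highest libraries for all 3 genes, although replicate 3 was among the low libraries for Fos. Hsph1 was chosen after its values were seen.

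Mitochondrial ribosomal RNA varied in yet another order. mt-Rnr1, the small subunit RNA, was at 14.9, 286, 164, 122, 26.7 and 40.3 CPM in replicates 1 to 6. Lars2, at 63.4, 728, 556, 336, 105 and 138 CPM, and Mir6236, at 3.81, 144, 101, 63.1, 13.3 and 20.1 CPM, fell in the same order of libraries. ENSMUSG00000119584, at rank 3 of all entries, did so too, at 14446 CPM in replicate 2 and 2226 CPM in replicate 1. In these libraries replicates 2, 3 and 4 were high and replicates 1, 5 and 6 were low. Mitochondrial messages had a smaller range: mt-Nd6, the one message of the light strand, ran from 110 to 238 CPM, and mt-Co1 from 3458 to 5328 CPM.

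B-lineage genes were marked by replicate 6. Ebf1, the factor that specifies B cells, was at 17.5, 15.1, 21.5, 15.5, 12.6 and 2.93 CPM in replicates 1 to 6. Igll1, the lambda5 chain of the surrogate light chain, was at 13.4, 9.32, 16.6, 10.5, 10.5 and 1.58 CPM, and Pax5, the factor of B-cell commitment, at 21.8, 15.7, 26.7, 17.0, 16.2 and 4.29 CPM. Replicate 3 was highest and replicate 6 lowest for all 3, with a gap below the other libraries.

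Of 16 B-cell genes kept, 10 were past the line, against 1.1% of all genes. Without replicate 6, 3 of them were past it. The BCV of Igll1 was 0.456 in all 6 libraries and 0.170 without replicate 6. The surrogate light chain gene Vpreb1 and the signalling chain gene Cd79a were likewise lowest in replicate 6, at 1.13 and 2.33 CPM against lowest values of 5.40 and 8.84 CPM in the other libraries. Ms4a1, which encodes CD20 of mature B cells, was also lowest in replicate 6, at 1.24 CPM, as was Igkc, the kappa constant region, at 80.9 CPM, but Igkc was highest in replicate 2, at 218 CPM. Igha, the constant region of IgA, was at 12.5 CPM in replicate 1, 15.6 CPM in replicate 6 and 48.7 to 63.7 CPM in the other 4.

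Some genes outside the B-cell list were also lowest in replicate 6, and all but Cecr2 were chosen after their values were seen. Myl10, a myosin light chain, was at 6.43 CPM in replicate 6 and 33.6 to 39.7 CPM in the other 5. Cecr2, a bromodomain protein, was at 2.41 CPM in replicate 6 and 12.7 to 18.6 CPM elsewhere, and its BCV was 0.410 in all libraries and 0.129 without replicate 6. Fn1, fibronectin, was at 8.24 CPM in replicate 6 and 20.2 to 44.8 CPM elsewhere. Pou2af1, a B-cell coactivator, was at 2.90 CPM in replicate 6 and 9.48 to 15.1 CPM elsewhere.

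Individual variable-region segments, which are expressed from rearranged receptor genes, were uneven between libraries. Igkv15-103 was at 37.2, 26.0, 11.9, 6.13, 33.6 and 19.3 CPM in replicates 1 to 6, and Ighv7-1 at 24.2, 18.5, 8.55, 5.04, 25.3 and 15.8 CPM. Of the 12 V segments kept 6 were variable, as were 6 of 7 constant regions kept, against 1.1% of all genes. Segments are close copies, and their separate counts are uncertain.

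Haemoglobin genes were lowest in replicate 3. Hbb-bs, adult beta-globin, was at 78.8, 37.1, 12.0, 62.1, 58.7 and 19.6 CPM in replicates 1 to 6, and Hba-a1, adult alpha-globin, at 18.2, 8.19, 2.80, 13.1, 13.6 and 4.55 CPM. Slc4a1, the band 3 anion exchanger of the red cell membrane, was at 22.3 CPM in replicate 5 and 2.29 CPM in replicate 3. Replicate 3 was lowest and replicate 6 next lowest for all 3. Of 19 erythroid genes kept 7 were past the line, against 1.1% of all genes, and Gata1, Klf1 and Epor were not. Not all of the 7 shared the order above: Car1 and Ermap were lowest in replicate 4. Klf1 was highest in replicate 3.

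The summed RNA of the MHC class II genes was highest in replicate 3, at 1722 CPM, and lowest in replicate 5, at 779 CPM, and 7 of the 10 members had both this highest and this lowest library. H2-Aa was at 242, 257, 342, 170, 130 and 241 CPM in replicates 1 to 6 and H2-Eb1 at 148, 165, 234, 108, 77.9 and 159 CPM. Ciita, the coactivator that governs these genes, was at 28.1 CPM in replicate 5 and 71.8 CPM in replicate 3, and Cd74, the invariant chain, at 231 and 545 CPM. Of 10 listed 5 were past the line, against 1.1% of all genes. Xcr1 and Tlr3, genes of cross-presenting dendritic cells chosen after their values were seen, were lowest in replicate 4 at 7.10 and 12.2 CPM and highest in replicate 6 at 17.0 and 28.7 CPM. Of 14 MHC class I genes 0 were past the line, near the 1.1% of all genes. H2-K1 ran from 1151 CPM in replicate 5 to 1344 CPM in replicate 3.

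Some mast cell and basophil genes were highest in replicates 3 and 6. Cpa3, carboxypeptidase A3 of mast cell granules, was at 62.8, 42.6, 87.2, 57.3, 54.3 and 94.1 CPM in replicates 1 to 6, and Ms4a2, a chain of the IgE receptor, at 21.4, 12.2, 24.4, 18.4, 14.2 and 34.5 CPM. Cma1, mast cell chymase, was at 5.12 CPM in replicate 3 and 8.61 CPM in replicate 6 and at or under 0.922 CPM in the other 4. Prg2 was also highest in these libraries, but not all members of the list shared this order. Prss34 was highest in replicate 5 and lowest in replicate 6, Alox5 was highest in replicate 4, and Mcpt8 was alike in replicates 3 to 6. The libraries highest for Cpa3, Ms4a2 and Cma1 were the lowest for late neutrophil granule genes.

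**Figure D5:**
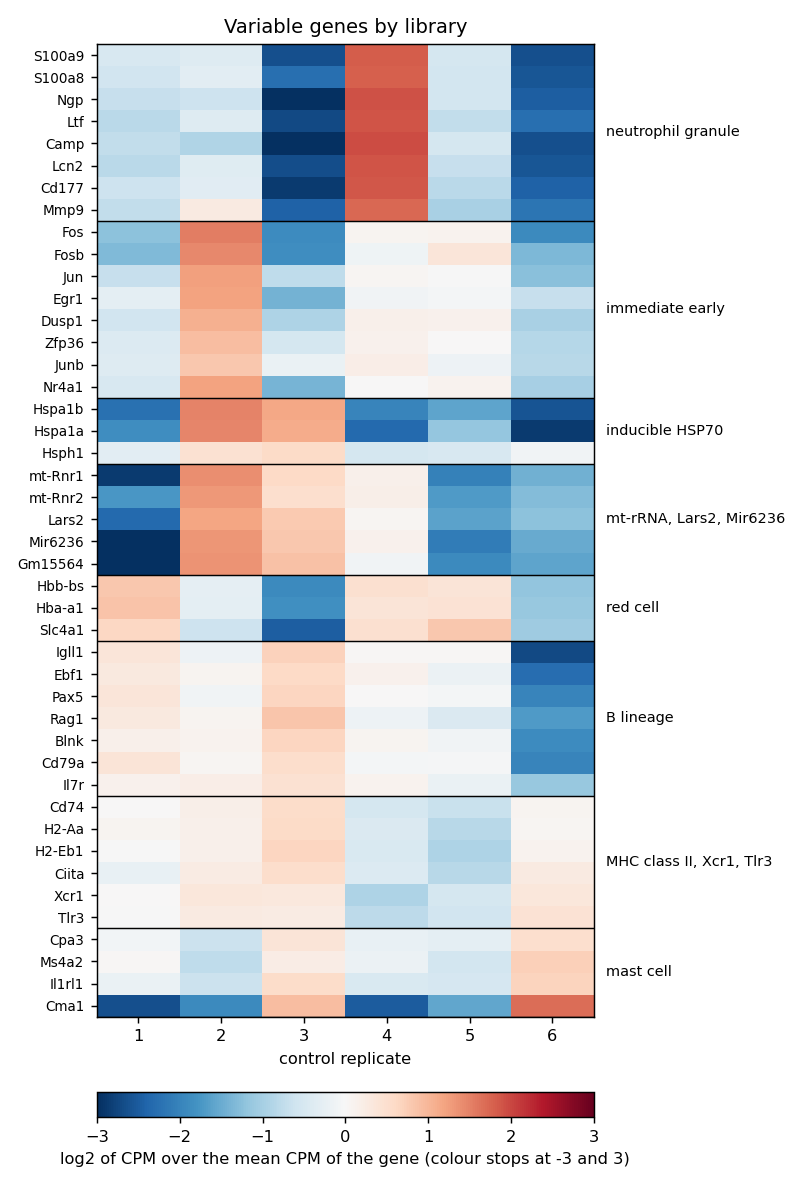
Log2 of the CPM in each control library over the mean CPM of the gene, for genes grouped by function, as a colour scale that stops at -3 and 3. Neutrophil granule genes are high in replicate 4, immediate early genes in replicate 2, Hspa1a and Hspa1b in replicates 2 and 3, and B-lineage genes low in replicate 6, where Igll1 is at 1.58 CPM.

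At the other end, the genes with the lowest BCV at 10 CPM or more were signalling and chromatin genes among others. Tbk1, a kinase of innate immune signalling, was at 85.9 CPM in replicate 6, 88.3 at the median and 89.3 in replicate 5. Mrtfb, a coactivator of serum response factor, was at 75.3 to 77.7 CPM, Traf6, an E3 ligase of Toll-like receptor signalling, at 90.2 to 93.8 CPM and Smarcb1, a core subunit of the BAF complex, at 92.3 to 96.2 CPM. Cnot3, of the CCR4-NOT deadenylase complex, lay at 96.8 to 100.3 CPM. The 15 least variable genes all lay between 75.3 and 101 CPM in every library, and for each the observed spread was at or under its counting error. Their rank also depends on the trend towards which edgeR draws each BCV. By coefficient of variation alone the lowest gene was at 0.554%, against 1.46% for Tbk1. The spread was within counting error for 498 genes from 10 to 100 CPM and 23 genes from 100 to 1000 CPM, so this does not set the 15 apart.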

How the data were processed

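Read counts per gene in the 6 control libraries were analysed as deposited. The authors made these counts, per the labels, with FastQC 0.11.9, fastp 0.23.2, STAR 2.7.10a and featureCounts 2.0.1 on GRCm39, and the notes also name DESeq2 1.36.0, whereas the study's methods name Trim Galore! and HISAT2 for bulk RNA-seq. Strand setting and treatment of multi-mapping reads are not given in the sources used here. Depth was 22804754 to 41832868 counts per library, and no row lacked a gene identifier. Gene names, classes and exon lengths came from GENCODE M21 (GRCm38), which named 52125 of 56748 identifiers. Rows for the 6 other libraries were not used.

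CPM with TMM factors, the filter on low counts (filterByExpr) and BCV were computed in R 4.3.3 with edgeR 4.0.16, and the alternative dispersion with DESeq2 1.42.0. The rest was computed in Python 3.11.15. The estimate of BCV was tested on simulated data. Levels per kb used the union of exons, and genes under 200 bases were left out of ranks per kb. Related genes were compared by the log2 ratio of CPM per kb with a prior count of 0.5, by an exact two-sided sign-flip permutation test with Benjamini-Hochberg adjustment.

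Genes named were the 30 most abundant by CPM and per kb, the sorting and lineage genes, in each list the 3 highest per kb and the most variable, the 30 most and 15 least variable genes with a mean of 10 CPM or more, and both genes of each pair. Other genes were named after their values were seen: AA474408, C1qa, C3, Cd79a, Cdh5, Ciita, Ctsg, Dusp1, Ebf1, Elane, Epor, Fn1, H19, Hoxb5, Hspa1a, Hsph1, Ighv7-1, Ikzf1, Kcnq1ot1, Klf1, Lyl1, Mecom, Meg3, Meis1, Mmp8, Ms4a1, Ms4a2, Myb, Myl10, Neat1, Pax5, Pou2af1, Prtn3, Rpl13a, Rpl24, Rps10, Scarna2, Spi1, Tal1, Tfrc, Tlr3, Vpreb1, Xcr1, Zfp36, Kdm5d, Uty and the mitochondrial messages under 1 CPM. Alox5, Ermap and Prss34 were also named after their values were seen. The control group is defined by its labels, but the members and lists were chosen with earlier results of these data known. Of 939 listed symbols 920 were measured. Alternatives were other scalings, no filter, DESeq2's dispersion, other CPM thresholds, other lengths, a prior count of 2, the top genes without mitochondrial genes, and each library left out. At 0.5 and 2 CPM, 16081 and 12557 genes passed in all libraries. Values of some listed genes are not reported here.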

Additional observations from a re-analysis of the deposited data

Results flagged for a closer look

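Within each measure the 6 libraries were examined for a highest or lowest library whose gap to its neighbour, divided by the whole range, was over Dixon's 95% critical value for 6 values. Of 229 measures examined (list sums, library measures and the genes whose values are given above), 26 met this. Chance alone gives this in about 1 in 20 measures, but that share does not apply here, since the genes examined include the most variable ones and some named for standing apart in 1 library. Replicate 4 stood apart in 11 of them and replicate 2 in 9, replicate 6 in 3, replicate 1 in 2, replicate 3 in 1 and replicate 5 in 0.

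Replicate 4 was the high library for the summed mature neutrophil genes, at 2900 CPM against 618 CPM in the next library. Single genes behind this were Ngp at 530 CPM, S100a9 at 734 CPM, S100a8 at 573 CPM, Ltf at 354 CPM, Camp at 171 CPM, Chil3 at 158 CPM and Lcn2 at 146 CPM. Cd177 at 65.6 CPM, Mmp8 at 29.1 CPM and the lineage antigen Ly6g at 4.89 CPM were high in the same library. The part of mature cells in replicate 4 was not tested.

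Replicate 2 was the high library for the immediate early genes Jun at 262 CPM, Fos at 130 CPM, Egr1 at 43.7 CPM and Nr4a1 at 23.6 CPM, and for Malat1 at 5990 CPM. It was the low library for the summed early myeloid genes, at 4189 CPM against 4938 CPM in the next, for Mpo at 1328 CPM, for the summed adhesion and homing genes at 4936 CPM, and for Smarcb1 at 92.3 CPM. Smarcb1 was among the least variable genes, and its next library was at 95.1 CPM.

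Replicate 6 was the low library for Myl10 at 6.43 CPM, Cecr2 at 2.41 CPM and Igf2r at 16.2 CPM, the mannose 6-phosphate receptor gene. Replicate 1 was the high library for the Y-linked genes Eif2s3y at 0.675 CPM and Ddx3y at 0.579 CPM. Replicate 3 was the low library for Adgrg1, at 1365 CPM against 1481 CPM in the next.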

How the results depend on the processing

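Scaling changed little: with DESeq2 size factors or upper-quartile factors 184 and 185 variable genes were found, of which 184 and 180 were among the 185, and the 338 mean CPM recomputed with the former and the 40 list sums recomputed with the latter stayed within 1 SD. With no filter on low counts the common BCV was 0.125 and 541 genes were variable, of which 127 were among the 185, and more low genes entered the trend. DESeq2's dispersion gave 273 variable genes, 167 of them shared. The share of counts in the 100 most abundant genes was 13.1% without mitochondrial genes and identifiers with no name, an alternative chosen after seeing the data, and 15.2% without mitochondrial genes alone.

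The direction of some pairs of related genes depended on length. With no division by length the log2 ratio turned for Psmb6 to Psmb9 (-0.42), Dnmt3a to Dnmt3b (0.69), Runx1 to Runx3 (0.69), Ptpn6 to Ptpn11 (-0.018), Fth1 to Ftl1 (1.21), Hnrnpa2b1 to Hnrnpa1 (0.60) and Hmgb1 to Hmgb2 (0.38). With the longest transcript in place of all exons it turned for Tet2 to Tet1 (0.23), Runx1 to Runx3 (0.096), Stat5b to Stat5a (-0.021), Fth1 to Ftl1 (0.12), Hnrnpa2b1 to Hnrnpa1 (0.37), Srsf2 to Srsf1 (0.52) and Hmgb1 to Hmgb2 (0.27). By these scales 68 and 69 of 71 pairs were called, and 69 with a prior count of 2.

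With each library left out in turn the common BCV was 0.0991 to 0.109, the share of the top 100 genes 15.4% to 15.7% and the genes at 1 CPM or more in all libraries left 14244 to 14329. Variable genes numbered 141 without replicate 6 to 182 without replicate 2, and 143 without replicate 4. In each case 69 pairs had 1 order in the 5 libraries left, and the ratio of Runx1 to Runx2 ran from -0.0068 without replicate 6 to 0.062 without replicate 1. No paired analysis was possible because only 1 group of libraries was described. Depth limited genes under 1 CPM, of which most of the spread is counting error.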

Other observations

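Interferon-stimulated genes, imprinted genes and some nuclear noncoding RNAs were not described above. All 32 interferon-stimulated genes measured were at 1 CPM or more in every library, with a sum of 1402 CPM in replicate 6 to 1558 CPM in replicate 5. Of these genes 0 were variable, which is near the 1.1% of all genes and is no result about this list. Ifitm3, a membrane protein that restricts virus entry, led the interferon-stimulated genes at 146 CPM per kb. Of 25 imprinted genes 11 were at 1 CPM or more in all libraries. The noncoding RNA Kcnq1ot1 was at 405 CPM and Impact, an inhibitor of the kinase GCN2, was at 46.7 CPM, while H19 and Meg3 were at 0.101 and 0.136 CPM.

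Neat1, the RNA scaffold of paraspeckles, was at 187, 331, 188, 225, 206 and 194 CPM in replicates 1 to 6. Replicate 2 was thus the highest library for Neat1, as it was for Malat1. Scarna2, a guide RNA of Cajal bodies, was at 179 CPM in replicate 6 and 314 CPM in replicate 2.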
